A study of Drosophila melanogaster with 12 samples.

Results

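Heads of SIRT6 knockout flies were compared with heads of the white-eyed laboratory strain w1118, both kept on the solvent of a drug. The comparison uses 6 of the 12 libraries of the series, 3 for each genotype. Each library was made from total RNA of the head of a single female fruit fly (Drosophila melanogaster) that the labels give as unmated and 21 days old, and it was depleted of ribosomal RNA before sequencing. All 6 flies had eaten food with dimethyl sulfoxide (DMSO) since leaving the pupal case, and the other 6 flies had eaten food with 100 µM of 680C91, which blocks TDO2, the enzyme that starts the breakdown of tryptophan, in DMSO. The labels name the groups SIRT6 KO and w1118 and say nothing of how the allele was made, or whether the knockout was crossed into the w1118 strain. An effect of the allele and one of the strain background cannot be told apart here. The labels number the samples of a group and do not state that the flies came from separate vials, so p-values measure the spread between these flies.

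SIRT6 is a sirtuin, an enzyme of the nucleus that uses NAD to remove acetyl and longer acyl groups from histones and other proteins. In mammals it is known for repressing genes of sugar metabolism and for a role in DNA repair. The fly head holds brain, eyes, muscle, cuticle, blood cells and a sheet of fat body, the insect counterpart of liver and adipose tissue. Fat body makes yolk proteins in females, lipoproteins, immune peptides and many enzymes that detoxify foreign compounds, so the amount of it in a head moves many transcripts at once. In whole heads, fewer cells of a type and less RNA per cell cannot be told apart.

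The 6 DMSO libraries held 32694212 to 43324141 counts. Levels are given in counts-per-million (CPM) after scaling for library composition, and differences as log2 of the knockout level over the w1118 level, so that a value above 0 is higher in the knockout. A gene is called higher or lower where its adjusted p from edgeR's quasi-likelihood test was under 0.05 over the 14155 genes tested. Sirt6 (FBgn0037802, on 3R from 10255349 to 10261849 in the BDGP 6.54 annotation) was measured first. Its level was 1.95, 2.34 and 1.98 CPM in the libraries labelled KO and 2.46, 2.71 and 2.71 CPM in w1118. The groups did not overlap, with the KO libraries lower, but the difference was not called (log2 difference -0.33, SE 0.18, edgeR adjusted p = 0.357). The transcript was therefore present in the libraries labelled KO, and the counts do not show by themselves that the protein was lost.

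Between the genotypes 581 genes were called, which is 4.10% of those tested, with 291 higher (2.06%) and 290 lower (2.05%) in the heads labelled KO. This even split moved with the processing, to 349 and 244 under median-of-ratios size factors, 415 and 255 among genes of at least 1 CPM in 3 libraries, 374 and 253 without yolk protein counts, and 1074 and 555 without w1118 replicate 2. A log2 difference of 1 or more in size was found for 350 of the 581, and of 3 or more for 75. The median size over the 581 was 1.19, against 0.257 over all genes tested. Genes without a functional name were frequent: 206 of the 581 carry only a CG number, 35.5%, close to the 36% of all genes tested. Without regard to the test, 24.1% of all genes tested had 3 knockout values that did not overlap the 3 w1118 values and for 14.0% of all genes tested they lay below. Leaving out any library moved the count by over 1.5 times, to 331, 276 and 227 without knockout replicates 1, 2 and 3, and to 332, 1629 and 323 without w1118 replicates 1, 2 and 3, and 196 of the 581 were called in each of these 6 fits.

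Fat body markers differed more within w1118 than between the genotypes. The 3 yolk proteins, Yp1, Yp2 and Yp3, together took 11.1%, 9.98% and 10.4% of gene counts in the knockout heads. In w1118 they took 21.3% and 18.6% in replicates 1 and 3 and 0.429% in replicate 2. The other 24 fat body markers moved with them: their summed level was 48150, 36057 and 30463 CPM in the knockout heads and 63691, 5228 and 45890 CPM in w1118. For the yolk proteins the knockout heads lay between w1118 replicate 2 and the other 2 w1118 heads, while for the other markers knockout replicate 1 also lay above w1118 replicate 3. The log2 difference of the summed other markers was 0.597 (two-sided exact permutation test over 3 against 3 libraries, p = 0.9, where the smallest possible p is 0.1). It is a difference of mean log2 sums, in which 1 very low head weighs heavily. It turned to -0.439 without w1118 replicate 2 (exact permutation p = 0.3). In edgeR's fit of all libraries the sign was opposite. There the median log2 difference was -0.434 over the 24 other markers, with 10 above 0. Over the 3 yolk proteins it was -0.927, with 0 above 0.

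**Figure D1:**
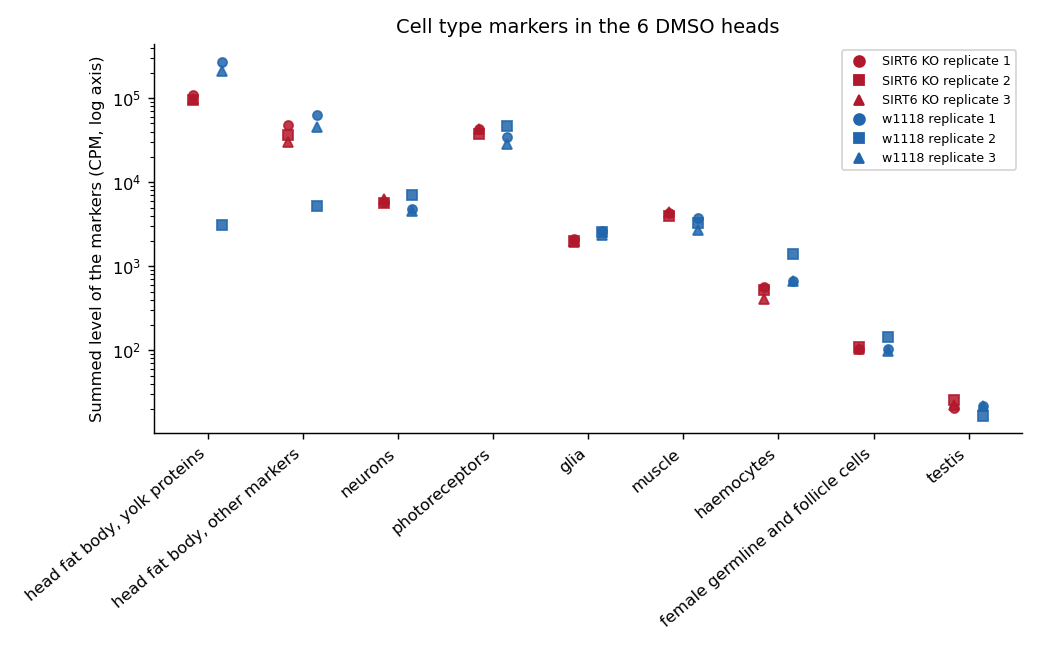
Summed level of the markers of each cell type in CPM (log axis) for the 3 SIRT6 KO heads (red) and the 3 w1118 heads (blue) on DMSO, 1 point per head. In w1118 replicate 2 the yolk proteins sum to 3126 CPM and the other fat body markers to 5228 CPM, far below the other 5 heads.

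No fat body marker was called by edgeR: 0 of 3 yolk proteins and 0 of 24 other markers passed, with 0 and 5 at an unadjusted p under 0.05, 0 and 2 by DESeq2 and 0 and 4 by limma voom. Yp1 was at 53339, 44680 and 45113 CPM in the knockout heads and at 90009, 1217 and 64369 CPM in w1118. The lipoprotein precursor apolpp was at 20397, 11406 and 5997 CPM in the knockout heads and 11607, 456.7 and 8287 CPM in w1118. Lsp2, a larval serum storage protein, was at 1277, 2206 and 1307 CPM against 12173, 38.3 and 3885 CPM. For Yp1 and Lsp2 w1118 spanned the knockout values, while for apolpp knockout replicate 1 lay above and the other 2 inside the w1118 range. The transferrin Tsf1 did not follow the pattern, with 5383, 4219 and 3796 CPM in the knockout heads and 1434, 1946 and 4232 CPM in w1118.

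To see which genes moved with fat body markers between flies of the same group, a score was added to the model of 12 libraries. The score was the mean log2 level of the 24 other markers. Its slope was called for 2506 of 14128 genes outside the marker lists, 17.7%, of which 1393 rose and 1113 fell with the score. The share differed widely between lists, whose counts keep members that are also markers. Such members, like Lsd-1 among the lipid genes, enter the score themselves, so their slope is no separate support. The slope was called for 83 of 90 cytoplasmic ribosomal proteins, 51 of 80 nuclear-encoded respiratory chain subunits, 25 of 38 genes of glycolysis and the citric acid cycle, 20 of 31 lipid genes and 86 of 146 small nucleolar and spliceosomal RNAs. It was called for 2 of 33 aminoacyl-tRNA synthetases, 1 of 30 ribosome biogenesis genes, 2 of 77 cuticular proteins and 6 of 164 chemoreceptors. The slope rests on w1118 replicate 2 of each treatment, the other of which had 1.93% yolk counts: without these 2 libraries edgeR called it for 0 genes, with 1558 at an unadjusted p under 0.05.

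Of the 581 genes called between genotypes, 38 also had a called slope, 6.54%, against 18.2% of the genes not called. Of the 38, 16 rose with the score and 22 fell. With the score in the model, all 581 were still called in the same direction, and their median log2 difference stayed at 1.19. The 581 had been picked by the fit without the score, where spread that goes with fat body counts as noise. The score was 0.2325, -0.0351 and -0.0337 in the knockout heads, inside the w1118 values of 0.9488, -2.395 and 0.4689. These counts therefore cannot show how far fat body content explains the calls. Without the score the median standard error of the genotype difference was 0.247 for genes with a called slope and 0.245 for the others, and with it 0.123 and 0.233, a median ratio of 0.554 and 0.98. With the score 1410 genes were called (9.96%), among them 826 outside the marker lists that had not been called before. These had a median difference of 0.533, under that of the 581. Ribosomal proteins were frequent among them: 49 of 90 were called lower in the knockout heads with the score. Without it edgeR and DESeq2 called 0, limma voom with sample weights 73, and 2 were under an unadjusted p of 0.05, while 89 of the 90 differences lay below 0.

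Leaving out w1118 replicate 2 left heads more alike within w1118, but fully apart between the genotypes in yolk content, 9.98% to 11.1% in the knockout against 18.6% and 21.3%, and 1629 genes were called. Of the 581 called genes, 507 were among them, and all 581 kept their direction. Of all genes tested in that comparison 1074 were higher, 7.40%, and 555 lower, 3.82%. There genes of neurons, photoreceptors and synapses were called in 1 direction: 7 of 17 neuronal markers, 7 of 20 photoreceptor markers and 9 of 26 synaptic vesicle and active zone genes were called higher and 0 of each lower, where the full comparison had called 0, 3 and 0 higher by edgeR. For neurons 2 were then at an unadjusted p under 0.05, 0 were called by DESeq2 and 8 by limma voom. Their summed levels moved the other way to the fat body markers in w1118. Neuronal markers summed to 7123 CPM in replicate 2 and to 4763 and 4486 CPM in replicates 1 and 3. The knockout heads had 5639 to 6329 CPM. The part of the fat body share in these calls was not tested.

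**Figure D2:**
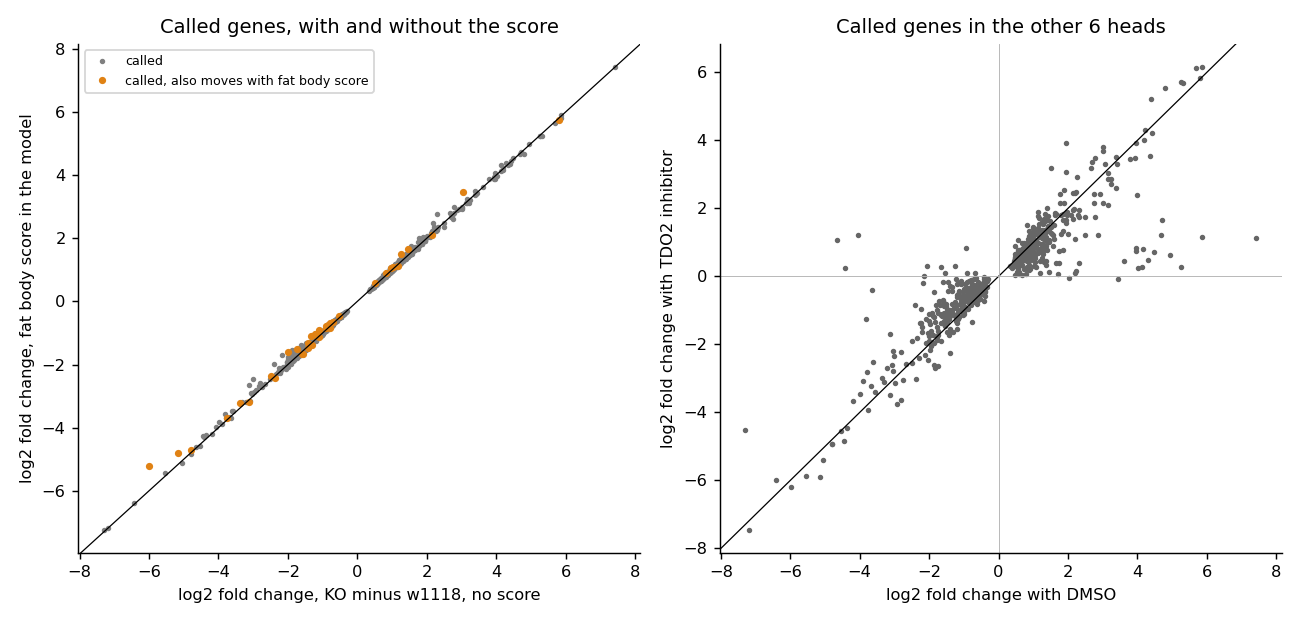
Left, log2 difference of the 581 called genes without (x axis) and with (y axis) the fat body score in the model, with the 38 genes of called slope in orange. Right, the log2 difference of the same genes with DMSO (x axis) and with the TDO2 inhibitor (y axis). Lines mark equal values, and 568 of the 581 genes had the same sign in both treatments.

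Enzymes that modify foreign compounds were called in both directions. Cytochrome P450 enzymes, which oxidise drugs, insecticides and hormones, had 6 members higher and 8 lower of 86 tested, 16.3%, against 4.10% of all genes. UDP-glycosyltransferases, which attach sugars to such compounds, had 3 higher and 2 lower of 34, 14.7%. Glutathione transferases, which attach glutathione, had 2 higher and 2 lower of 34, 11.8%. With all 6 heads the 3 families did not move as a block: their median log2 differences were -0.30, -0.13 and -0.25, against -0.07 over all genes. The summed P450 level was 3603 to 3683 CPM in the knockout heads, inside the w1118 range of 2274 to 5794 CPM. That range rests on w1118 replicate 2. Without it the knockout heads summed lower in each family: at most 3683 against at least 5134 CPM for P450s. For UDP-glycosyltransferases it was 393.2 against 503.3 CPM, and for glutathione transferases 1039 against 1256 CPM. The slope on the fat body score was called for 24 of 86, 8 of 34 and 6 of 34 members, against 17.7% of genes outside the marker lists. Markers were not left out of these list counts, and the P450 gene Cyp4g1 is a marker.

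**Figure D3:**
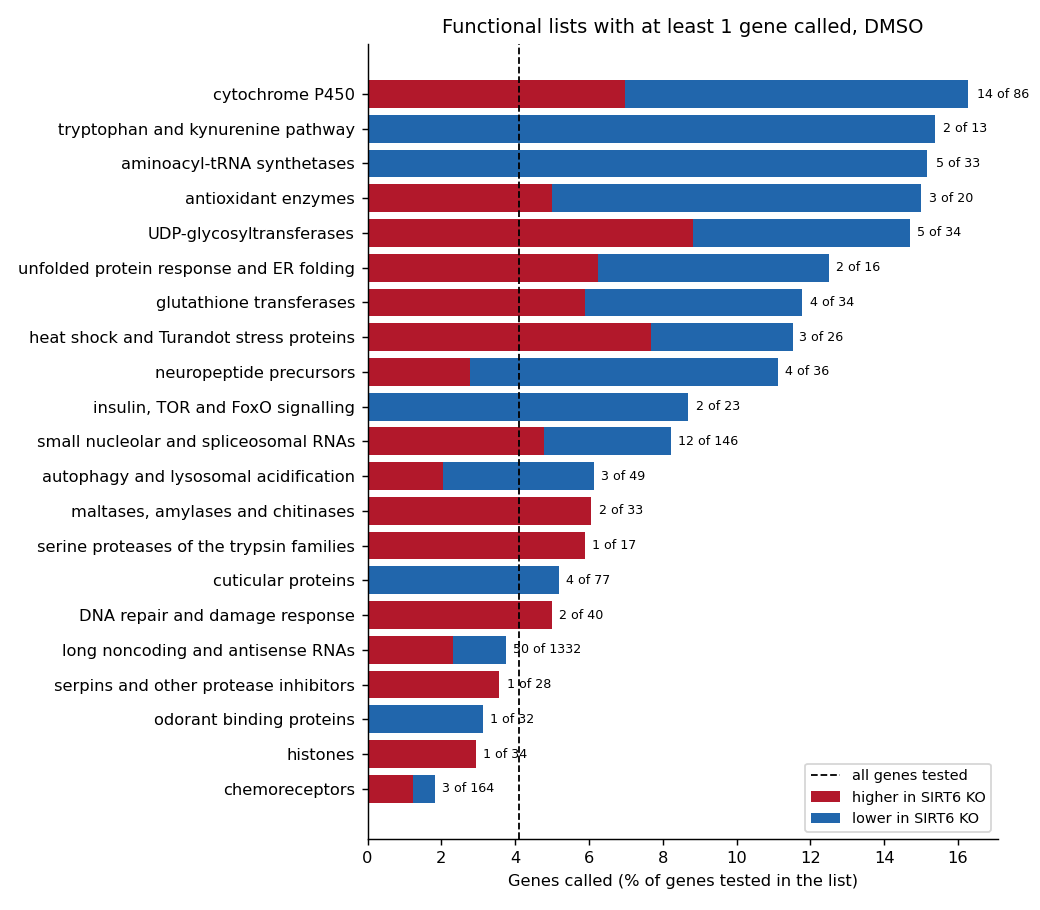
Share of tested genes called higher (red) or lower (blue) in SIRT6 KO heads for each functional list with at least 1 call, in percent, with the counts at the bar ends. The dashed line is the share over all genes tested, 4.10%.

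Cyp4p2 had the smallest adjusted p of the family. It was at 100.2, 85.8 and 88.3 CPM in the knockout heads and at 2.82, 2.22 and 2.15 CPM in w1118, so all 3 knockout heads were far above (log2 difference 5.26, SE 0.19, edgeR adjusted p = 5e-07). Cyp6a14 was at 15.9, 16.4 and 18.3 CPM against 2.24, 1.83 and 1.65 CPM (3.15, SE 0.23, edgeR adjusted p = 7.49e-05). Cyp6g1, known for resistance to DDT when overexpressed and chosen here after its values were seen, was at 553.7, 708.9 and 671.5 CPM against 75.4, 46.8 and 63.6 CPM (3.38, SE 0.36, edgeR adjusted p = 0.000783). These 3 genes were higher in every knockout head and their calls held without any of the 6 libraries.

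Other P450 genes were lower in every knockout head. Cyp28a5 was at 4.54, 5.46 and 4.25 CPM in the knockout heads and 158.3, 91.1 and 148.1 CPM in w1118 (log2 difference -4.80, SE 0.28, edgeR adjusted p = 1.09e-05). Cyp4d21, an enzyme first described for its sex-dependent expression in heads, was at 3.76, 4.68 and 3.38 CPM against 22.9, 39.2 and 31.1 CPM (-2.98, SE 0.31, edgeR adjusted p = 0.000756). Cyp9f2 was at 117.3, 122.9 and 114.3 CPM against 284.6, 343.3 and 284.5 CPM (-1.36, SE 0.17, edgeR adjusted p = 0.00206). These calls held without any of the 6 libraries. Cyp6w1 also moved with the fat body score. It was at 12.4, 18.1 and 15.1 CPM in the knockout heads and at 593.9, 74.0 and 594.6 CPM in w1118, where the low value is the head with little yolk (-4.79, SE 0.98, edgeR adjusted p = 0.0256). With the score its difference was -4.71, and its call was lost without any knockout library or w1118 replicate 1 or 3, with an adjusted p of up to 0.114.

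Ugt35B1 was at 3.26, 2.85 and 2.41 CPM in the knockout heads and 32.6, 53.6 and 31.6 CPM in w1118 (log2 difference -3.79, SE 0.31, edgeR adjusted p = 0.000136). Ugt37D1 was at 32.3, 31.8 and 32.9 CPM against 61.7, 77.3 and 54.5 CPM (-0.99, SE 0.12, edgeR adjusted p = 0.00141). GstE1 rose instead, from 14.7, 13.8 and 11.4 CPM in w1118 to 37.6, 33.0 and 37.0 CPM in the knockout heads (1.43, SE 0.15, edgeR adjusted p = 0.000744). GstD3 was lower, at 2.03, 2.40 and 1.82 CPM against 5.61, 5.35 and 5.98 CPM (-1.44, SE 0.23, edgeR adjusted p = 0.00812), a call lost without knockout replicate 3 (0.0601). The other 3 hold in each of the 6 fits.

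**Figure D4:**
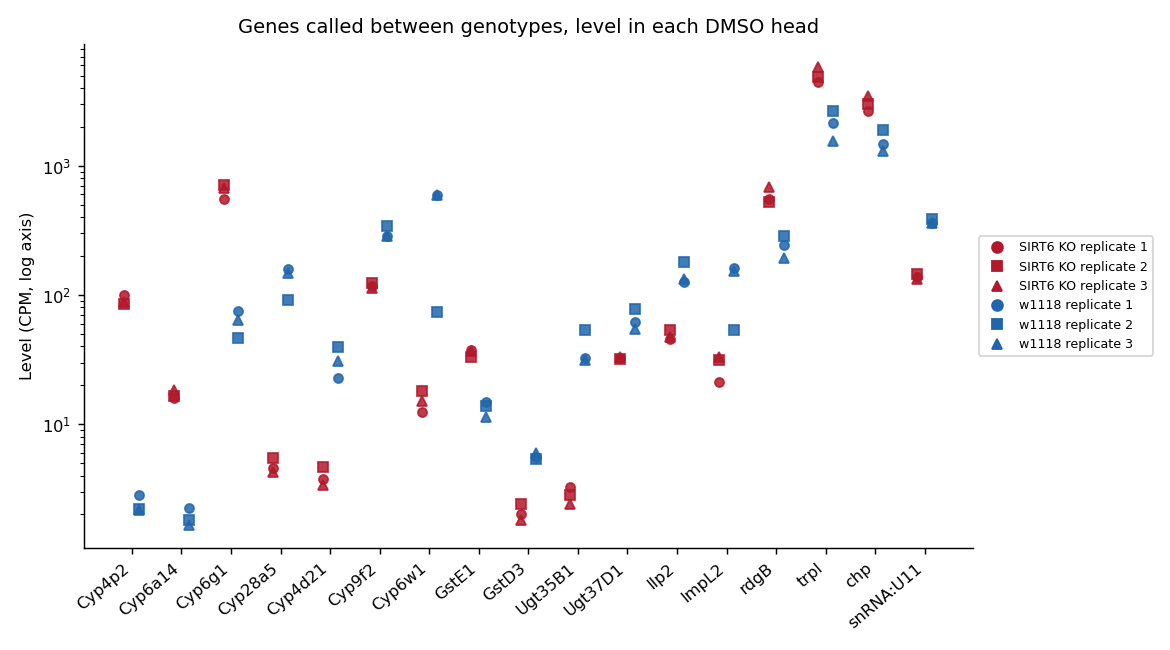
Level in CPM (log axis) of 17 called genes in each of the 3 SIRT6 KO heads (red) and 3 w1118 heads (blue) on DMSO, 1 point per head. The genotypes do not overlap for any of these genes. Cyp6w1 and ImpL2 show the w1118 head with low fat body markers apart from the other 2.

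Of 20 photoreceptor markers tested 3 were called higher and 1 lower, 20% against 4.10% of all genes tested. The light-activated channel trpl was at 4424, 4895 and 5828 CPM in the knockout heads and 2163, 2638 and 1554 CPM in w1118 (log2 difference 1.25, SE 0.23, edgeR adjusted p = 0.0172). The rhabdomere adhesion protein chp was at 2638, 3026 and 3486 CPM against 1463, 1905 and 1308 CPM (0.97, SE 0.19, edgeR adjusted p = 0.0237). The phosphatidylinositol transfer protein rdgB, which restores lipid at the photoreceptor membrane, was at 555.3, 524.1 and 687.2 CPM against 242.8, 287.1 and 193.6 CPM (1.29, SE 0.18, edgeR adjusted p = 0.00357). All knockout heads lay above all w1118 heads for these 3 genes. The blue-sensitive rhodopsin Rh5 was the exception, at 193.0, 208.8 and 216.2 CPM against 303.1, 391.7 and 259.8 CPM (-0.63, SE 0.15, edgeR adjusted p = 0.05 after rounding).

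Other called genes known from the eye went either way, and no count of them in each direction was made. The pigment transporter gene st was lower (-0.9996), a call lost without any knockout library or w1118 replicate 1 (edgeR adjusted p up to 0.126). Higher were Culd, which acts in rhodopsin uptake, at 1031, 1054 and 1050 CPM against 486.6, 563.0 and 381.3 CPM (log2 difference 1.13, edgeR adjusted p = 0.00311), and prom, which helps to separate the rhabdomeres, at 120.4, 153.4 and 175.3 CPM against 57.7, 70.1 and 52.3 CPM (1.32, edgeR adjusted p = 0.00221). The eye transcription factor so, chosen like prom after its values were seen, was at 52.0, 52.7 and 55.9 CPM against 27.3, 32.8 and 23.1 CPM (0.95, edgeR adjusted p = 0.00167). These 3 calls and that of rdgB held without any of the 6 libraries. The calls of trpl without knockout replicate 2 or 3, and of chp without either of these or w1118 replicate 1 or 3, were lost, with adjusted p up to 0.0724 and 0.0915. That of Rh5 was lost without any knockout library or w1118 replicate 1 or 2 (up to 0.212). The photoreceptor markers as a whole did not separate the groups. They summed to 37870 to 43380 CPM in the knockout heads and to 34783, 46061 and 28523 CPM in w1118. The highest w1118 sum was in the head with low fat body markers. The part of the summed photoreceptor markers in these results was not tested.

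Among hormones, Ilp2, the insulin-like peptide of the brain's insulin-producing cells, was lower in all knockout heads. It was at 45.9, 53.4 and 47.1 CPM against 126.3, 179.3 and 133.7 CPM in w1118, a 3.00-fold difference (log2 difference -1.58, SE 0.17, edgeR adjusted p = 0.000783), and the call held without any of the 6 libraries. ImpL2, a secreted protein that binds insulin-like peptides, was at 21.1, 31.3 and 33.1 CPM against 162.1, 53.8 and 152.2 CPM (-2.11, SE 0.41, edgeR adjusted p = 0.0201). Among w1118 it was lowest in the head with low fat body markers. Its call was lost without any knockout library or w1118 replicate 1 or 3 (adjusted p up to 0.0846). These were the 2 calls among 23 genes of insulin, TOR and FoxO signalling (8.7%, against 4.10% of all genes tested), and the list's median was 0.08.

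Of 36 neuropeptide precursors 1 was higher and 3 were lower, 11.1% against 4.10% of all genes tested. Dh44, a diuretic hormone precursor, was at 74.1, 59.7 and 43.9 CPM in the knockout heads and 22.8, 32.2 and 23.7 CPM in w1118 (log2 difference 1.18, SE 0.21, edgeR adjusted p = 0.0137; 0.0502 without w1118 replicate 3). Nplp3 was at 56.4, 60.5 and 67.4 CPM against 143.7, 192.4 and 132.3 CPM (-1.34, SE 0.24, edgeR adjusted p = 0.0141; up to 0.0751 without a knockout library). The other 2, Trissin and SIFa, differed by -0.85 and -1.02. The call of Trissin was lost without any knockout library (up to 0.0796) and that of SIFa in each of the 6 fits (edgeR adjusted p 0.0792 to 0.185). Of 13 genes of tryptophan use, 0 were higher and 2 lower (15.4%). They were TrpRS, which loads tryptophan onto its tRNA, and st, a subunit of the transporter that brings eye pigment precursors into pigment granules. TrpRS was at 15.6, 16.6 and 15.5 CPM against 21.8, 25.99 and 22.4 CPM (-0.56, SE 0.09, edgeR adjusted p = 0.0105; up to 0.0912 without a knockout library).

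Protein synthesis and folding genes were called in both directions. Of 33 aminoacyl-tRNA synthetases, the enzymes that charge tRNAs, 5 were lower and 0 higher, 15.2% against 4.10% of all genes tested. The list's median difference was -0.02. LysRS was at 46.1, 42.5 and 40.97 CPM in the knockout heads and 72.8, 65.0 and 67.3 CPM in w1118 (-0.66, SE 0.10, edgeR adjusted p = 0.0044; 0.0536 without knockout replicate 3). The mitochondrial GluRS-m was at 2.45, 2.67 and 1.96 CPM against 4.85, 4.504 and 4.99 CPM (-1.02, SE 0.16, edgeR adjusted p = 0.0061), a call that held in the 6 fits. TrpRS, AspRS and LeuRS were the others, at -0.56, -0.40 and -0.64. The call of LeuRS was lost in each of the 6 fits (edgeR adjusted p 0.0518 to 0.24) and that of AspRS in each but the one without w1118 replicate 2 (up to 0.23).

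In the endoplasmic reticulum, Edem1, which sends misfolded glycoproteins to degradation, was at 198.1, 200.04 and 214.9 CPM against 79.1, 95.2 and 73.6 CPM (log2 difference 1.31, SE 0.12, edgeR adjusted p = 0.000233; held in the 6 fits). The stress sensor Ire1 was lower, at 97.7, 93.1 and 89.7 CPM against 144.6, 141.9 and 133.0 CPM (-0.58, SE 0.10, edgeR adjusted p = 0.0101; up to 0.0962 without any knockout library or w1118 replicate 1). They were the only calls among 16 genes of the list (12.5%, against 4.10% of all genes tested). Of the 8 subunits of the cytosolic chaperonin CCT, which folds actin and tubulin, 5 were called higher and 0 lower, 62.5%. The family was chosen after its values were seen. Of the 5 calls that of CCT7 held in the 6 fits, while those of CCT2, CCT4, CCT5 and CCT8 were lost without knockout replicate 2 or 3, and all but that of CCT8 without w1118 replicate 1 or 3 (up to 0.117, 0.0935, 0.0833 and 0.06). All 8 differences were above 0, with a median of 0.60, and CCT7 was at 58.3, 62.8 and 62.3 CPM against 32.6, 32.8 and 37.7 CPM (0.83, edgeR adjusted p = 0.0124). With the inhibitor the median over the 8 subunits was 0.07. Their abundant client Act5C was at 818, 1394 and 1315 CPM against 559.7, 752.4 and 513.0 CPM (0.95, SE 0.22, edgeR adjusted p = 0.0384), a call lost without knockout replicate 2 or 3 or w1118 replicate 1 or 3 (up to 0.129).

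The inducible heat shock chaperone Hsp70 is encoded by near-identical copies, of which 2 of 6 were called higher. They were 2 of the 3 calls among 26 heat shock and Turandot stress genes (11.5%, against 4.10% of all genes tested). Since reads cannot be assigned surely among copies, the sum is given: 58.2, 237.3 and 244.4 CPM in the knockout heads and 29.9, 36.6 and 27.6 CPM in w1118, a mean log2 difference of 2.27. All 3 knockout heads were above w1118, replicate 1 by the least. The small heat shock protein Hsp22 was lower, at 11.004, 30.8 and 15.6 CPM against 55.9, 111.3 and 47.1 CPM (log2 difference -1.90, SE 0.46, edgeR adjusted p = 0.0491), but 5 of the 6 fits without a library lost it, that without knockout replicate 2 being the exception (up to 0.202).

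Small noncoding RNAs had 7 members higher and 5 lower of 146, 8.22% against 4.10% of all genes tested. The U11 RNA, a part of the minor spliceosome that removes a rare class of introns, was at 137.1, 144.6 and 133.4 CPM in the knockout heads and 358.3, 385.1 and 362.7 CPM in w1118 (snRNA:U11, log2 difference -1.41, SE 0.12, edgeR adjusted p = 0.000136; held in the 6 fits). Of 5 copies of U2, a part of the major spliceosome, 1 was lower and 1 higher. snRNA:U2:38ABa was at 9.50, 9.15 and 6.98 CPM against 125.9, 125.4 and 129.2 CPM, and snRNA:U2:34ABa at 94.1, 84.2 and 66.1 CPM against 4.09, 2.23 and 5.26 CPM. The 2 copies thus traded places, and the sum over the 5 copies differed less, with 160.3, 127.3 and 107.4 CPM against 220.4, 186.1 and 251.8 CPM (mean log2 difference -0.75). How reads were shared among the copies was not tested.

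Many of the largest differences were genes close to silent in 1 genotype. The septate junction protein gene hoka was at 18.1, 17.6 and 20.5 CPM in the knockout heads and 0.506, 0.185 and 0.345 CPM in w1118 (log2 difference 5.80, SE 0.32, edgeR adjusted p = 5.87e-06). Cht4, a chitinase, was at 37.1, 37.6 and 42.6 CPM against 1.23, 0.683 and 1.06 CPM (5.32, SE 0.25, edgeR adjusted p = 4e-06), and its neighbour Cht12 was also called higher (3.14). The long noncoding RNA lncRNA:CR40469 was at 331.2, 453.3 and 250.5 CPM against 6.80, 4.63 and 6.35 CPM (5.86, SE 0.30, edgeR adjusted p = 5.33e-06). In the other direction p24-2, a cargo receptor of the secretory pathway, was at 0, 0.390 and 0.675 CPM against 55.6, 41.1 and 64.4 CPM (-7.19, SE 0.88, edgeR adjusted p = 0.00167). The overlapping gene Unc-115b, an actin-binding protein, was at 2.01, 3.27 and 2.00 CPM against 89.1, 61.1 and 92.3 CPM (-5.06, SE 0.53, edgeR adjusted p = 0.000756). Of their paralogs, eca was at 29.6, 27.1 and 23.1 CPM against 37.5, 24.3 and 32.8 CPM, and Unc-115a at 142.1, 156.8 and 180.5 CPM against 142.5, 144.0 and 119.6 CPM, neither of them called. The sperm dynein gene copies Sdic2 and Sdic3 were at no more than 0.0900 CPM in the knockout heads and at 2.34 to 4.21 CPM in w1118. All calls named in this paragraph held in the 6 fits.

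Other large rises came with a wide spread among the knockout heads. CG12592, which lies 76493 bases from Sirt6 on 3R (10338342 to 10340872), had the largest rise of all by the naming rule. It was at 208.4, 2080 and 401.3 CPM in the knockout heads and 8.90, 3.38 and 3.48 CPM in w1118 (log2 difference 7.42, SE 1.41, edgeR adjusted p = 0.0183). narya, a gene of meiotic recombination, was at 279.9, 2868 and 442.1 CPM against 27.3, 10.7 and 23.2 CPM, and the matrix metalloproteinase Mmp1, chosen after its values were seen, at 150.4, 1279 and 256.4 CPM against 33.0, 44.8 and 30.0 CPM. Knockout replicate 2 was far above replicates 1 and 3 in each. Of the 291 genes called higher, 13 were at least 4-fold higher in knockout replicate 2 than in either other knockout head, as were 157 of all genes tested. Their median difference was 4.29 with DMSO and 0.72 with the inhibitor, where 0 of the 13 were called. In the inhibitor heads CG12592 was at 18.0, 92.4 and 352.6 CPM in the knockout and 66.1, 117.8 and 27.4 CPM in w1118, so the groups overlapped. The calls of narya and Mmp1 were lost without knockout replicate 2 or w1118 replicate 1 or 3, that of Mmp1 also without knockout replicate 3 (edgeR adjusted p up to 0.0932 and 0.131), and CG12592 lost its call without w1118 replicate 1 or 3 (up to 0.0769).

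**Figure D5:**
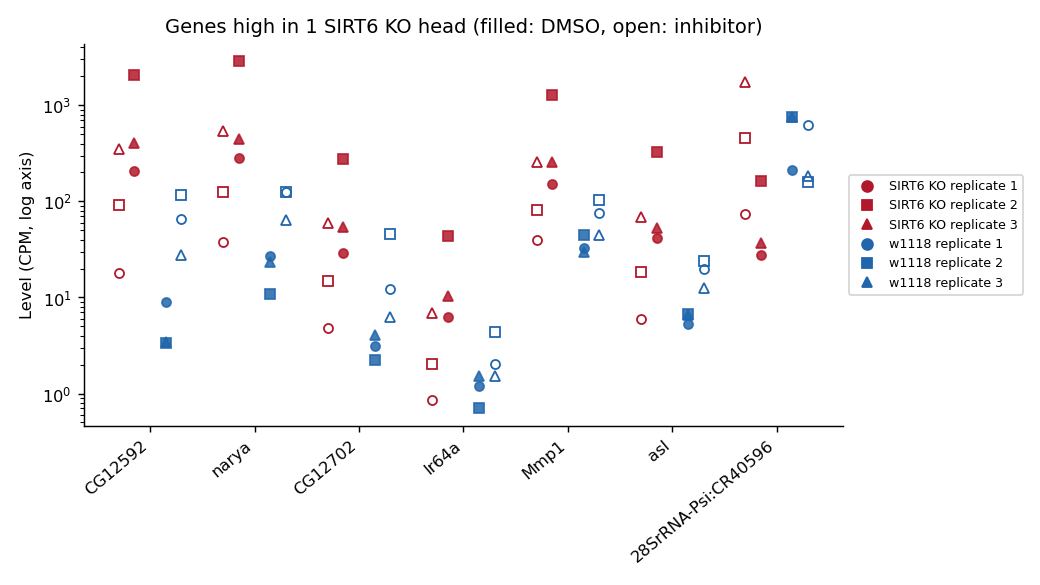
Level in CPM (log axis) of 6 genes called higher that spread widely among SIRT6 KO heads, and of a 28S ribosomal RNA pseudogene, in all 12 heads. Filled points are DMSO heads and open points inhibitor heads, with SIRT6 KO in red and w1118 in blue, and knockout replicate 2 on DMSO is the highest head for each of the 6 genes.

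A ribosomal RNA pseudogene also differed between libraries. Of 9 genes annotated as ribosomal RNA edgeR called 0, and for 0 of them the DMSO groups did not overlap. The pseudogene 28SrRNA-Psi:CR40596 was at 27.4, 162.8 and 37.1 CPM in the knockout heads and 213.6, 762.9 and 762.4 CPM in w1118, so knockout replicate 2 was the highest of its group here too. Within w1118 on DMSO the pseudogene was lowest in replicate 1, where CG12592 was highest. In the inhibitor heads the pseudogene was at 74.4, 460.5 and 1728 CPM in the knockout and 627.3, 160.5 and 184.3 CPM in w1118. CG13708, called lower with DMSO and chosen after its values were seen, had the same order within the knockout groups, with 16.2, 23.3 and 19.1 CPM on DMSO and 55.7, 282.6 and 998.9 CPM on inhibitor, and 164.6, 349.3 and 461.7 CPM in w1118 on DMSO. The part of ribosomal RNA in the calls of CG12592, narya, Mmp1 and CG13708 was not tested.

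Blood cell and defence genes had few calls outside a small family. Of 33 antimicrobial and Bomanin peptides and 35 genes of peptidoglycan recognition and Toll or Imd signalling, edgeR called 0 and 0, with 2 and 5 at an unadjusted p under 0.05, 1 and 1 by DESeq2 and 1 and 10 by limma voom. Of 13 Nimrod and thioester-containing proteins, some of which bind bacteria or mark them for uptake, 5 were lower and 0 higher. That is 38.5%, against 4.10% of all genes tested. The list was chosen after its values were seen. NimB5 was at 9.33, 8.46 and 6.41 CPM in the knockout heads and 22.7, 23.6 and 22.9 CPM in w1118 (log2 difference -1.51, edgeR adjusted p = 0.00219; held in the 6 fits). NimB4, NimC2, NimC3 and Tep1 were the others, and each lost its call in at least 3 of those fits. In w1118 the sum of the 9 haemocyte markers was highest in the head with low fat body markers. These 9 summed to 411.1 to 562.3 CPM in the knockout heads and 664.6, 1410 and 663.5 CPM in w1118. The groups did not overlap, edgeR called 0 of the 9 (5 at an unadjusted p under 0.05, 1 each by DESeq2 and limma voom), and their part in the Nimrod calls was not tested. Of the other cell types, muscle markers summed to 3990 to 4407 CPM against 2670 to 3748 CPM, and glial markers to 1961 to 2113 CPM against 2381 to 2644 CPM, both without overlap (exact permutation p = 0.1, the smallest possible). Of the 18 muscle markers bt was called higher (0.99) and Act79B lower (-0.58), 11.1%. Of 12 female germline markers Cp15 was lower (-3.64), 8.33%. Each of these 3 calls was lost without knockout replicate 2 or 3 or w1118 replicate 3, those of Act79B and Cp15 also without knockout replicate 1 and that of Cp15 without w1118 replicate 1 (edgeR adjusted p up to 0.0724, 0.129 and 0.13). Of 15 glial and 9 testis markers edgeR called 0, with 3 of each at an unadjusted p under 0.05, 1 and 2 by DESeq2 and 4 and 2 by limma voom. Testis markers summed to at most 25.5 CPM and female germline markers to at most 144.1 CPM in any DMSO head.

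Of 40 genes of DNA repair 2 were called, both higher, 5.00% against the 4.10% of all genes tested: the photolyase phr at 32.2, 35.8 and 34.8 CPM against 20.6, 24.5 and 22.9 CPM (log2 difference 0.59, SE 0.09, edgeR adjusted p = 0.00702), and the mismatch repair gene Pms2 at 7.38, 7.02 and 7.40 CPM against 2.78, 4.08 and 3.37 CPM (1.09, SE 0.18, edgeR adjusted p = 0.00854). Both calls held in the 6 fits. Of 10 sirtuins and histone deacetylases, 31 genes of heterochromatin and small RNA silencing, 38 of glycolysis, trehalose and the citric acid cycle and 8 of NAD metabolism, edgeR called 0. Also 0 were called among 31 lipid genes, 80 nuclear-encoded respiratory chain subunits, 13 mitochondrial genome transcripts, 44 proteasome subunits, 18 clock genes and 26 synaptic genes. Of the 299 genes in these 10 lists 27 were at an unadjusted p under 0.05, 8 were called by DESeq2 and 52 by limma voom. Over all 14155 genes DESeq2 called 1202 and limma voom 2406, and the share at an unadjusted p under 0.05 is not given here. With the fat body score in the model edgeR called 9.96% of all genes. Among these lists it then called 7 of 31 lipid genes and at most 3 in each other list.

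The remaining lists had 0 to 4 calls each, apart from the long RNAs. The share over all genes tested was 4.10%. Of 20 antioxidant enzymes 1 was higher and 2 lower (15.0%), of 77 cuticular proteins 0 and 4 (5.19%) and of 164 chemoreceptors 2 and 1 (1.83%). Of 32 odorant binding proteins 0 were higher and 1 lower (3.12%), and of 49 autophagy and V-ATPase genes 1 and 2 (6.12%). Of 33 maltases, amylases and chitinases 2 were higher (6.06%), with 0 lower. Of 17 trypsin-type proteases (5.88%), 28 protease inhibitors (3.57%) and 34 histones (2.94%) 1 each was higher, with 0 lower. Of 30 ribosome biogenesis genes edgeR called 0, with 3 at an unadjusted p under 0.05 and 1 each by DESeq2 and limma voom. Of 1332 long noncoding and antisense RNAs 31 were higher and 19 lower, 3.75%. The odorant binding protein Obp8a was at 1.92, 1.89 and 1.82 CPM against 9.84, 12.2 and 6.83 CPM (log2 difference -2.36, SE 0.25, edgeR adjusted p = 0.000791; held in the 6 fits). By position, the share called was 3.62% to 4.89% on chromosomes X, 2, 3 and 4. Within the first megabase from Sirt6 on 3R, 10 genes were higher and 8 lower of 287, 6.27%. Genes that overlap another annotated gene, among them Cyp4p2, Ilp2, ImpL2, Edem1, trpl, snRNA:U11 and narya, were called in 3.93% of cases. Whether the counts used strand is not given in the sources used here, so for these genes reads of the partner gene cannot be told apart.

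The 6 heads kept on the TDO2 inhibitor give the same contrast in other flies. Both contrasts come from 1 fit that shares each gene's estimate of spread, so their calls are not independent. With inhibitor 482 genes were called (3.41%), and of the 581 genes called with DMSO 311 were called again in the same direction, 170 of them higher and 141 lower. With each treatment fitted alone, 149 of 343 were called again. In 568 of the 581 the sign was the same, and the median difference in the direction of the DMSO call was 0.834 with inhibitor. Cyp4p2 differed by 5.71, Cyp28a5 by -4.93, hoka by 5.82, rdgB by 1.12, snRNA:U11 by -1.25 and Ilp2 by -0.79 on the log2 scale with inhibitor, all called. For 26 of the 581 genes the differences with DMSO and inhibitor lay more than 2 apart on the log2 scale, and 13 of the 26 were the genes high in knockout replicate 2. edgeR's test of the interaction of genotype and treatment called 0 of 14155 genes, with 685 at an unadjusted p under 0.05 and a smallest adjusted p of 0.0771.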

How the data were processed

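Per the labels' protocols, total RNA of each head, with ERCC controls added, went through ribosomal RNA removal and a NEBNext Ultra II kit. The submitters' processing notes name Trim Galore 0.6.7, STAR 2.7.9a, Salmon 1.10.1 and the BDGP6 genome, with no role or order. The authors deposited 1 table of expected counts, estimated per gene before any normalization, with 24278 rows, of which 17895 are genes and 5898 transposable element copies, and every column matched a sample. Expected counts were rounded, genes were kept by edgeR's filterByExpr (minimum count 10), libraries were scaled by TMM, and edgeR 4.0.16 (R 4.3.3) fitted 1 model of 4 group means over the 12 libraries, with Benjamini-Hochberg adjustment. DESeq2 1.42.0 and limma 3.58.1 served as alternatives, as did other scalings, filters, the fat body score as a covariate and leaving out libraries. The fat body score is the mean log2 CPM (prior count 2) of the 24 markers other than yolk proteins. Gene positions were looked up by identifier in Ensembl 115 (BDGP 6.54), a release that need not be the one the authors counted with.

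The genes, gene lists and tests were chosen with earlier results of these data known. Named genes are Sirt6; of called genes that do not overlap and average at least 1 CPM, the 8 largest rises, 8 largest falls and 5 most abundant in each direction; up to 4 called members of each list by smallest p; called marker genes and the fat body markers. Not all of them are printed, and any other gene is said to have been chosen after its values were seen. A floor of 3 counts is 0.0706 to 0.0956 CPM in the DMSO libraries, and covers counting error only since reads carry no molecular identifiers. No 2 replicates were alike within sampling noise: chi-square per degree of freedom was at least 101.2. In counts simulated for this contrast with 14155 genes, 109 of 200 changed genes were called with 4.39% false calls. Of those changed by 3 on the log2 scale 62 of 67 were called, and 0 where none was changed. Whether these values hold with a head as far apart as w1118 replicate 2, or with a shift in fat body content, was not tested.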

Additional observations from a re-analysis of the deposited data

Results flagged for a closer look

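The difference of Sirt6 between the genotypes was -0.33 on the log2 scale with DMSO, all 3 knockout heads lying below w1118, and 0.31 with the inhibitor, where all 3 lay above. edgeR's interaction test of the 2 differences gave an adjusted p of 0.972 (unadjusted 0.0279).

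Rows for transposable element copies, which no comparison above uses, took 4.05% ± 0.155 (SD, n = 3) of all counts in the knockout heads on DMSO and 2.19% ± 0.544 (SD, n = 3) in w1118. The 3 knockout heads lay above the highest w1118 head, at 2.80%. With 3 libraries per group no head could be tested as an outlier.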

How the results depend on the processing

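The number of genes called between genotypes, 581, was 1202 by DESeq2, 2406 by limma voom with sample quality weights, 343 with only the 2 groups in the model, 1410 with the fat body score and 1216 with the yolk protein level as a covariate, 2614 without both w1118 heads of low yolk and 227 to 1629 with 1 library left out. The 311 called again in the same direction with inhibitor were 585, 974 and 149 in the first 3 of these, 1393 without the 2 low-yolk heads and 182 to 897 with 1 library left out. Genes with a called slope on the fat body score, 2506, were 984 with the replicate block, 0 without both low-yolk heads and 1368 to 2162 with 1 library left out. The summed fat body markers differed by 0.466 to 1.33 with 1 library other than w1118 replicate 2 left out, by -0.439 without that one, and by 0.822 for yolk proteins alone. edgeR's differences of the single yolk proteins had a median of -0.927. Replicate numbers did not pair the flies (correlations of same-numbered deviations 0.0574, 0.0815 and -0.0654); with the replicate block 396 genes were called, 380 of them among the 581, and 238 again with inhibitor. Other scalings and filters gave 492 to 670 calls. In every alternative each of the 581 genes that was tested kept its direction, and 172 were called in all of them. For named genes called in the main fit, 0 values under alternatives reversed and 368 lost their call. For named genes not called there, 27 values gained a call in the same direction. Their changes of sign were not counted. The causes of these changes were not tested.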

Other observations

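The exocyst is the complex that tethers secretory vesicles to the cell membrane, a family chosen after its values were seen. Of its 8 subunits 3 were called higher and 0 lower in the knockout heads on DMSO. That is 37.5%, against 4.10% of all genes tested. Sec3 differed by 0.48, Sec5 by 0.49 and Sec8 by 0.46 on the log2 scale, while the median over the 8 was 0.07 with DMSO and -0.06 with inhibitor. Each call was lost without at least 1 of the 6 libraries, with edgeR adjusted p of up to 0.0751, 0.117 and 0.12.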
